A study of Homo sapiens with 18 samples.

Results

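NAT10 knockdown was compared with control in H1 cells, an established line of human embryonic stem cells, at 0 h, that is before actinomycin D was given to block transcription. The comparison takes 6 of the 18 libraries of the series, namely 3 control and 3 knockdown libraries. Control cells carried a negative control shRNA and knockdown cells an shRNA against NAT10, each delivered by a lentivirus that also encodes GFP. Per the labels' protocols the GFP-positive cells were enriched and then expanded in TeSR-E8 medium with puromycin, so both groups were transduced, sorted and drug-selected. No clone or sequence of the shRNA is given in the labels, and they do not tell whether the 3 libraries of each group are separate cultures. The p-values thus measure only the spread between these libraries, which may be technical.

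NAT10 is the acetyltransferase that makes N4-acetylcytidine, or ac4C, in RNA. It acetylates 18S ribosomal RNA with the help of small nucleolar RNAs, and transfer RNA together with the adaptor protein THUMPD1, and it has been reported to acetylate messenger RNA. Embryonic stem cells hold a large nucleolus and divide quickly, and their identity rests on a core of transcription factors kept active by FGF and activin signals. Before the block, RNA levels show the steady state that cells with little NAT10 had reached, which sums synthesis and decay.

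The 6 libraries held between 15213546 and 15335806 counts each, ERCC spike-in included. Polyadenylated RNA was captured with oligo(dT) beads. ERCC transcripts, a set of synthetic RNAs of known amount, were added to the RNA after it had been purified. Levels are given in CPM, the share of a library's counts, scaled by TMM, which takes the typical transcript as its reference, and they are not divided by gene length. Errors of levels are SDs over 3 libraries, and errors of log2 fold changes are approximate SEs. A gene was called changed at an adjusted p under 0.05 in edgeR's quasi-likelihood test, adjusted over the 15802 genes tested.

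One library stood apart before any comparison between groups. Knockdown replicate 1 differed from replicates 2 and 3 by a chi-square of 15.4 and 22.1 per degree of freedom over 15572 and 15548 genes, while replicates 2 and 3 differed from each other by 2.14. Among the control libraries the same quantity was 2.31 between replicates 1 and 2, 3.91 between 1 and 3 and 7.05 between 2 and 3. Between a control and a knockdown library it lay between 34.0 and 51.0. The common biological coefficient of variation, a measure of the spread within a group, was 12% in the 3 knockdown libraries and 3.41% without replicate 1. It was 6.46% in the controls and between 2.88% and 3.83% in the 4 groups given actinomycin D. Counts that moved by over 1.5 times without knockdown replicate 1 are given both ways.

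NAT10 (ENSG00000135372, chromosome 11, 34105602 to 34147670, plus strand, GRCh38) was low in every library labelled knockdown. Its level was 216, 218 and 220 CPM in control replicates 1 to 3 and 21.5, 22.8 and 26.2 CPM in knockdown replicates 1 to 3. The groups did not overlap, and the log2 fold change was -3.21 ± 0.10 (edgeR quasi-likelihood test, adjusted p = 1.12e-08). THUMPD1, the adaptor for transfer RNA acetylation, stood at 88.4, 88.7 and 96.4 CPM in control and 68.3, 62.1 and 56.3 CPM in knockdown. Its log2 fold change was -0.55 ± 0.10, with no overlap (edgeR, adjusted p = 9.35e-04).

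The gene counts per ERCC count were lower in every knockdown library. They were 1166, 821 and 924 in control replicates 1 to 3, and 665, 512 and 473 in knockdown replicates 1 to 3, with means of 970 ± 177 and 550 ± 101 (SD, n = 3 each). The knockdown mean was 56.7% of the control mean. The groups did not overlap, and the difference of mean log2 ratios was -0.82 (two-sided exact permutation test, p = 0.1, which is the lowest value 3 against 3 libraries allow). Of the ERCC transcripts, 27 had at least 10 counts in every library, and each of these 27 was higher in knockdown, by 0.49 to 1.11 on the log2 scale with a median of 0.82. Fewer cells and less polyadenylated RNA per cell cannot be told apart in these bulk samples. Because the spike-in followed purification, an unequal amount of purified RNA between libraries cannot be told apart from either.

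The reference chosen for scaling set the balance of the calls. Under TMM, 3374 genes were higher in knockdown, which is 21.4% of those tested, and 2975 were lower, which is 18.8%. With library sizes set to the summed ERCC counts, 750 genes were higher, or 4.75%, and 9516 were lower, or 60.2%. An error in a library's ERCC sum shifts all its genes together, while the test treats each gene apart. The ERCC-scaled calls thus largely carry the 1 shared shift, whose own test gave p = 0.1 (two-sided exact permutation test), and are not separate results per gene. Without control replicate 1, knockdown replicate 2 or knockdown replicate 3 the number lower under ERCC scaling was 5780, 5145 or 5691, alternatives chosen after seeing the data, and without knockdown replicate 1 it was 11102, or 68.9% of 16118 tested, with 690 higher, or 4.28%. The median log2 fold change of all tested genes was -0.00 under TMM and -0.72 under ERCC scaling. With total gene counts in place of TMM that median was 0.10, and 4265 genes were higher and 1976 lower, so that higher genes made up 68.3% of the calls where they made up 53.1% under TMM. Every direction given for a gene or list is relative to the typical transcript unless ERCC scaling is named.

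**Figure D1:**
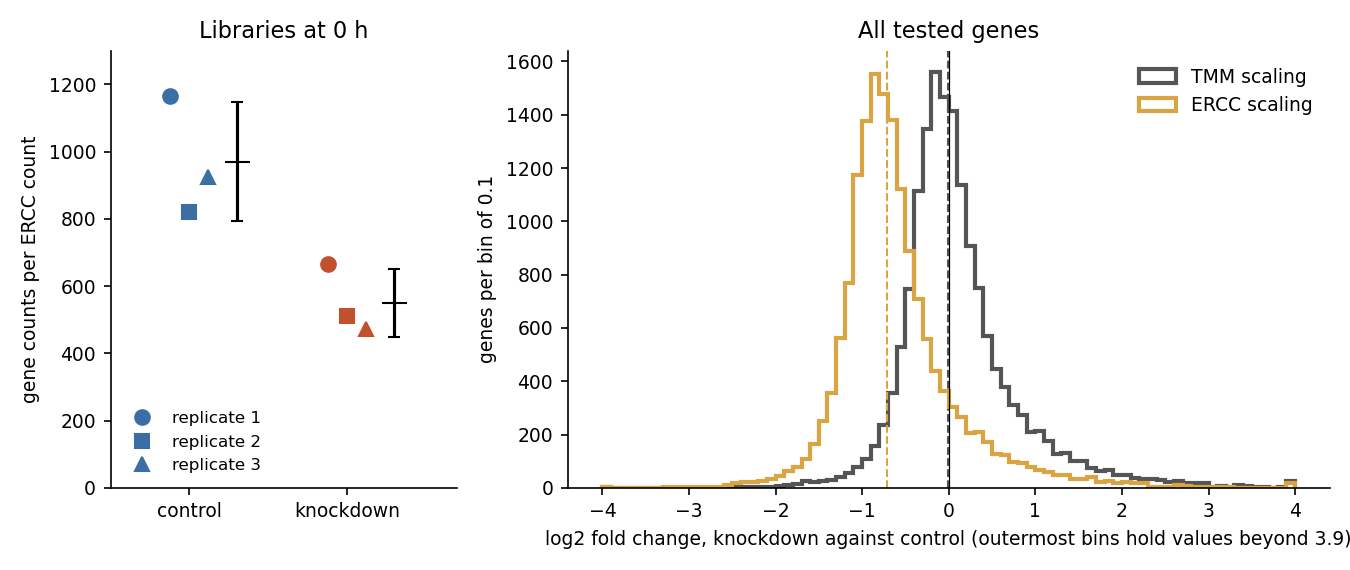
Left, summed gene counts per summed ERCC count in each library at 0 h, with the mean and SD of each group beside the points (n = 3). Right, distribution of the log2 fold change of knockdown against control over 15802 tested genes under TMM and under ERCC scaling, with dashed lines at the medians of -0.00 and -0.72. The 3 knockdown libraries lie between 473 and 665, below the 3 controls at 821 to 1166, and the distribution under ERCC scaling lies to the left of that under TMM.

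All 2975 genes that were lower under TMM were lower under ERCC scaling as well. Of the 3374 genes that were higher under TMM, 749 were also higher under ERCC scaling, or 4.74% of all genes tested, while 2624 were not called and 1 was lower. That 1 gene was PARP1, which encodes the poly(ADP-ribose) polymerase of DNA repair. Its levels were 1183, 1194 and 1180 CPM in control and 1298, 1370 and 1356 CPM in knockdown. The log2 fold change was 0.18 ± 0.06 under TMM (adjusted p = 0.0358, edgeR) and -0.54 under ERCC scaling. Of the genes that were not called under TMM, 6540 became lower. The ERCC-scaled spread was wider, with a common biological coefficient of variation of 20.4% against 9.76% under TMM.

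Knockdown replicate 1 departed from replicates 2 and 3 along the GC content of genes. Over 7371 genes with at least 20 CPM, its level divided by the mean of the other 2 had an SD of 0.30 on the log2 scale, and 8.75% of these genes lay beyond 0.5 in either direction. The log2 ratio of replicate 2 to replicate 3 had an SD of 0.098. In the decile of genes with the lowest exonic GC content, 27.8% to 38.5%, replicate 1 stood higher by a median of 0.30. In the decile with the highest, 61.3% to 76.8%, its median difference was -0.48. Spearman's rho of the difference with GC content was -0.90 across 7362 genes of the same libraries, and 0.11 with exonic length. The genes are not independent replicates, so these are descriptions.

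A smaller trend of the same kind was present in the controls. The median difference of control replicate 3 from the other 2 ran from 0.16 in the lowest GC decile to -0.19 in the highest, and that of control replicate 2 ran from -0.14 to 0.18. Control replicate 1 showed medians between -0.03 and 0.01. The contrast between the groups carried a trend as well, with a median log2 fold change from -0.06 in the lowest GC decile to 0.17 in the highest, and from -0.17 to 0.32 without knockdown replicate 1. The source of these trends was not tested.

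**Figure D2:**
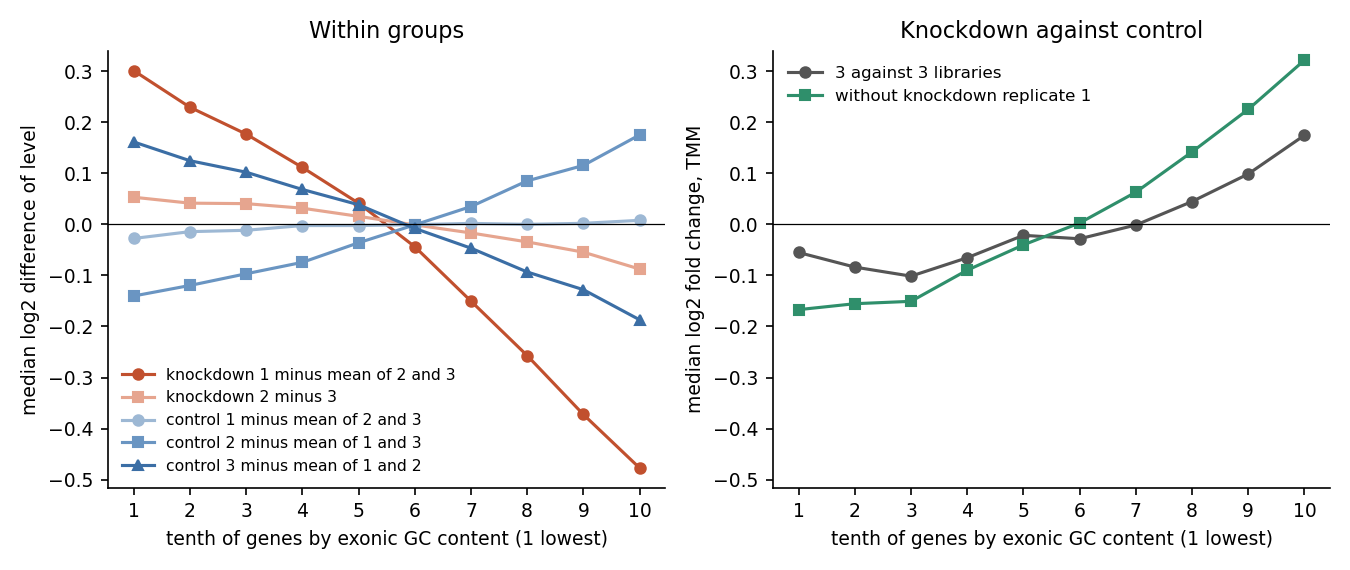
Median log2 difference of level by decile of genes ranked on exonic GC content. Left, each library against the others of its group, with knockdown replicate 1 falling from 0.30 to -0.48 and replicates 2 and 3 close to each other. Right, the median log2 fold change of knockdown against control under TMM, with all 6 libraries and without knockdown replicate 1.

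Named genes show the size of this departure. Among genes with at least 20 CPM in knockdown, the nuclear long noncoding RNA NEAT1, which builds paraspeckles, stood at 41.8 CPM in knockdown replicate 1 and at 26.7 and 28.7 CPM in replicates 2 and 3. Its controls were at 7.93, 9.79 and 9.89 CPM, so the groups did not overlap in either case. NDUFB5, a subunit of respiratory complex I, had 40.8 CPM in replicate 1 against 22.6 and 27.6 CPM, on both sides of its controls at 26.1 to 30.4 CPM. In the other direction UTF1, a chromatin factor of pluripotent cells, had 13.3 CPM in replicate 1 against 23.8 and 27.2 CPM. MAP1S, a microtubule-binding protein, had 47.1 CPM against 76.4 and 87.9 CPM, with controls from 52.2 to 71.2 CPM, so its groups overlapped through replicate 1.

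Leaving out knockdown replicate 1 raised the number of calls and turned none of them. Without it 4450 genes were higher, or 27.6% of 16118 tested, and 3939 were lower, or 24.4%. Of the genes called with all 6 libraries, 97.5% of the higher and 97.9% of the lower were called in the same direction without it, and 1103 further genes became higher and 992 lower. Adjusting each library for its trend with GC content, an alternative chosen after seeing the data, kept 99.8% of the higher and 99.2% of the lower calls and gave 5041 higher genes (31.9%) and 3966 lower (25.1%). The common biological coefficient of variation was then 4.37%. By chromosome, the median log2 fold change lay between -0.07, on chromosome 12, and 0.05, on chromosome 10, over the autosomes and the X chromosome. Without knockdown replicate 1 it ran from -0.098 on chromosome 4, whose genes had a median GC content of 42.6%, to 0.12 on chromosome 19, where that content was 58.3%.

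The largest rises that held under both scalings included genes of the contractile cytoskeleton. The genes named here had at least 20 CPM on average, passed the test in the same direction under TMM and ERCC scaling and had groups that did not overlap, which left 105 higher and 2005 lower genes to choose from. CNN1, the actin-binding calponin of smooth muscle (chromosome 19, 11538717 to 11550323), stood at 10.2, 9.46 and 8.66 CPM in control and 116, 155 and 159 CPM in knockdown. It rose by 3.92 ± 0.14 on the log2 scale (adjusted p = 4.92e-08, edgeR) and by 3.17 under ERCC scaling. LMCD1, a LIM-domain cofactor of muscle, was at 12.3, 10.4 and 9.89 CPM in control and 76.1, 74.7 and 80.9 CPM in knockdown, a change of 2.83 ± 0.11. PALLD, the actin scaffold palladin, went from 14.2, 12.4 and 15 CPM to 92.2, 84.2 and 89.6 CPM, and LIMCH1, an activator of non-muscle myosin, from 4.0, 2.57 and 4.5 CPM to 40.4, 40.9 and 39.2 CPM. All 4 were higher in each knockdown library than in any control, as that rule required. Knockdown replicate 1 was the lowest of its group for CNN1 and the highest for PALLD.

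Other genes with large rises belonged to different functions. CREB5, a transcription factor of the ATF and CREB family, went from 2.78, 3.11 and 4.23 CPM to 50.1, 38.9 and 41.6 CPM, a change of 3.69 ± 0.17. HMOX1, the stress-induced heme oxygenase, went from 35.1, 38.7 and 34.8 CPM to 229, 275 and 262 CPM, a change of 2.82 ± 0.10 (adjusted p = 4.29e-08, edgeR). ANXA1, a calcium-dependent membrane-binding annexin, went from 43.8, 45.4 and 69.1 CPM to 376, 325 and 321 CPM. MAP2, a microtubule protein of dendrites, rose by 3.05 ± 0.14, ACHE, which breaks down acetylcholine, by 3.49 ± 0.22 and CACNG4, an auxiliary subunit of glutamate receptors, by 3.33 ± 0.19. The matrix metalloproteinase gene MMP24 rose by 2.90 ± 0.14, the secreted matrix protein gene SPON1 by 2.80 ± 0.13 and SMIM10L2A, a gene with no role given here, by 2.97 ± 0.15. In each of these genes the groups did not overlap, as the rule for naming them required.

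**Figure D3:**
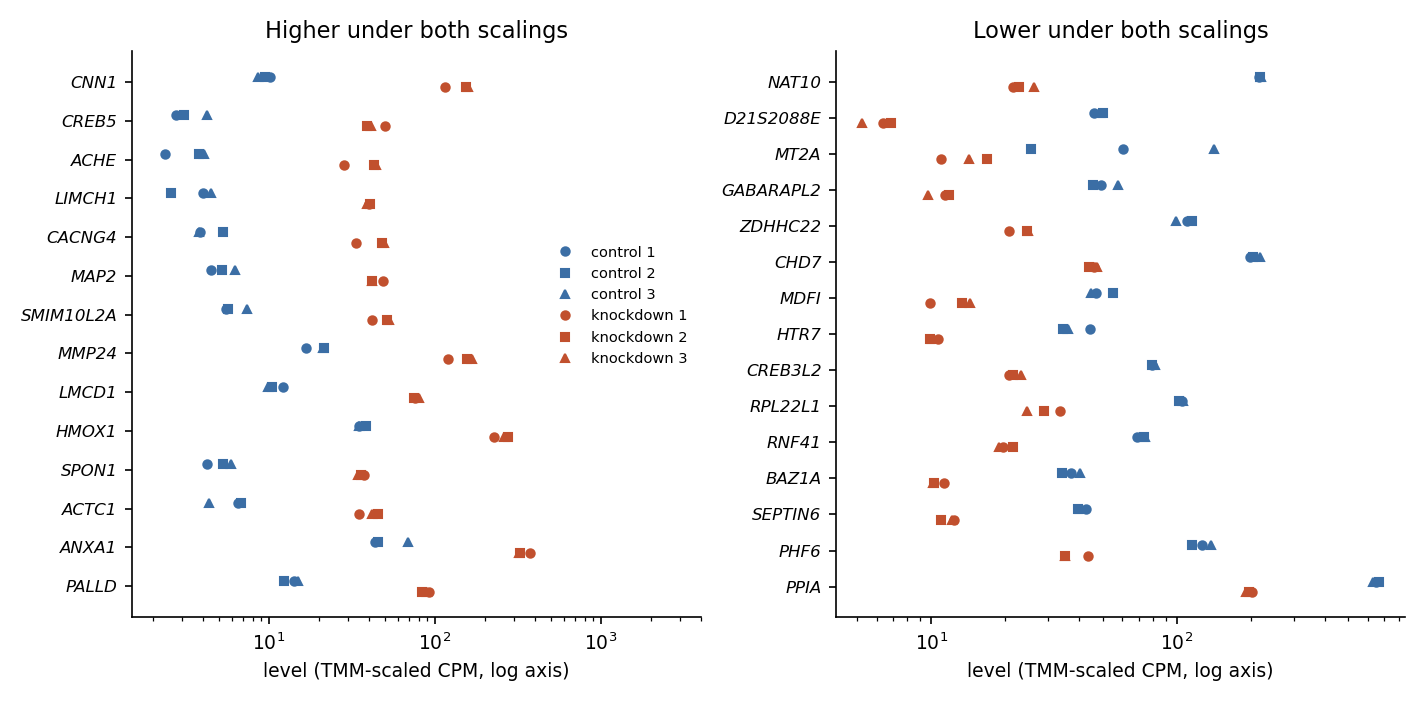
Level in each of the 6 libraries at 0 h, as TMM-scaled CPM on a log axis, for genes with the largest rises (left) and falls (right) that passed the test in the same direction under TMM and ERCC scaling. By the rule of choice every gene shows 3 knockdown values on one side of its 3 control values. MT2A has the widest spread among its controls.

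Actin and contractile genes rose in large number relative to the typical transcript. Of 44 listed and measured members, 29 rose and 2 fell, where 21.4% of all tested genes rose and 18.8% fell, and their median log2 fold change was 0.47 against -0.00 for all genes. Under ERCC scaling 10 were higher and 12 lower, with a median of -0.27 against -0.72, where 4.75% of all tested genes were higher and 60.2% lower. TAGLN, the calponin-related transgelin, went from 93.4, 94.7 and 103 CPM to 296, 377 and 392 CPM, a change of 1.87 ± 0.11, and its paralog TAGLN2 changed by 1.93 ± 0.11. ACTC1, the cardiac actin, went from 6.57, 6.82 and 4.36 CPM to 35.1, 45.2 and 41.9 CPM, a change of 2.78 ± 0.17. The groups did not overlap for any of these 3. FLNA, the actin-crosslinking filamin A, was at 3296, 3517 and 3073 CPM in control and 3207, 4502 and 4990 CPM in knockdown, where replicate 1 fell among the controls. It was called at 0.36 ± 0.13 (adjusted p = 0.0445, edgeR) and was not called under ERCC scaling (-0.39). ACTB, the main cytoplasmic actin, did not pass, at 0.07 ± 0.09, and was lower under ERCC scaling at -0.67.

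Knockdown replicate 1 was low for this list, with a median of -0.27 against the mean of replicates 2 and 3, where the median over all tested genes was -0.01. Without it 35 members rose and 2 fell, with a median of 0.60. Under the GC adjustment 33 rose and 2 fell. The list took 2.01 ± 0.09% of all gene counts in control and 2.75 ± 0.28% in knockdown (SD, n = 3 each), with knockdown replicate 1 at 2.43% and the other 2 at 2.86% and 2.95%. The groups did not overlap. Markers of smooth muscle moved with it, since 8 of 12 measured markers rose and 0 fell, and 9 of the 14 listed, CNN1 and TAGLN included, are also in the actin list. Their summed level was 662 to 776 CPM in control and 1604 to 1649 CPM in knockdown, and none of the 14 was at 0 in all 6 libraries. The part of such cells in the rise was not tested.

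Contractile genes are classical targets of serum response factor, SRF, which binds the CArG box. The windows from 250 bases before to 50 bases after the annotated starts of RefSeq genes (GRCh38.p14) were searched for the CArG box on both strands. Of 39 list members with a window, 15 held at least 1 match, or 38.5%, where 1.57% of 11465 tested genes and 1.29% of all 35116 windows did. Of these 15 genes, 8 were higher in knockdown, 1 was lower and 6 were not called under TMM. In the whole list 29 of 44 measured members were higher and 2 lower. A match is a description of the sequence and no evidence of binding here. Among all windows, matches of the CArG box overlapped those of the TEAD motif in 13 and those of the p53 half-site in 5, both described further on, and the latter pair overlapped in 1. The windows of ACTC1 and FLNA are shown as members named above, and that of ACTG2, the enteric smooth muscle actin, was chosen after its values were seen because it holds 2 matches. The window of SRF itself also holds 2, and SRF was not called at 0.20 ± 0.11 under TMM but was called higher without knockdown replicate 1, at 0.30, and under the GC adjustment, at 0.15. Sequences run from 5′ to 3′ on the strand of the gene, with the CArG box in capitals. They lie at chr15:34795500-34795799 (minus strand), chrX:154374585-154374884 (minus strand) and chr2:73892758-73893057 (plus strand).
ACTC1: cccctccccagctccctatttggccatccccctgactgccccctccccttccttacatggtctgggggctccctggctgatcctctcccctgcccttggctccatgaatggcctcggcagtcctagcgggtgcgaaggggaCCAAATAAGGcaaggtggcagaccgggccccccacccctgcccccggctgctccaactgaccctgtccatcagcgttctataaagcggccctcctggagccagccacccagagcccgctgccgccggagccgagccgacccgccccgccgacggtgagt
FLNA: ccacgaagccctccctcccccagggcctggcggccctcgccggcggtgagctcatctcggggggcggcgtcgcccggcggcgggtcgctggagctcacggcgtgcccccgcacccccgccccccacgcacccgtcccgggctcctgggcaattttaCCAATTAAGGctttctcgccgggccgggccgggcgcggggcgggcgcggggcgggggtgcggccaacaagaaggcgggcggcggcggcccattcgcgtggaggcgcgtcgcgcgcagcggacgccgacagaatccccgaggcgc
ACTG2: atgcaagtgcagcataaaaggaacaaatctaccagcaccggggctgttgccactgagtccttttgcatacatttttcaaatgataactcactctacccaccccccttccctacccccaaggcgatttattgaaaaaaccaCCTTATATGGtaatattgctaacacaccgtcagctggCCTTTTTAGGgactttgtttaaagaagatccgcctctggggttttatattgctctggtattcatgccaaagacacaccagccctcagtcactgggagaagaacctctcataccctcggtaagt
ACTG2 itself went from 3.28 ± 0.36 CPM to 9.96 ± 2.09 CPM (SD, n = 3 each), with no overlap and a change of 1.6 ± 0.19 (adjusted p = 6.17e-05, edgeR).

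Targets of YAP and TEAD, the factors through which cells read density and tension, rose in part. Of 33 measured members of 36 listed, 16 rose and 4 fell, with a median of 0.26, where 21.4% of all tested genes rose and 18.8% fell. Under ERCC scaling 5 were higher and 15 lower, where 4.75% of all tested genes were higher and 60.2% lower. AXL, a receptor tyrosine kinase, went from 40.6, 39.6 and 41.9 CPM to 178, 201 and 203 CPM, a change of 2.25 ± 0.09 (adjusted p = 4.92e-08, edgeR), and MYOF, the membrane repair protein myoferlin, changed by 2.63 ± 0.12. PTPN14, a phosphatase that restrains YAP, rose by 0.55 ± 0.08 and was not called under ERCC scaling (-0.16). YAP1 itself fell from 247, 228 and 265 CPM to 215, 182 and 177 CPM, a change of -0.37 ± 0.09. The letters CATTCC, a TEAD motif, were found on either strand in the windows of 11 of 28 members, or 39.3%, against 15.1% of the tested genes and 14% of all windows. Among these 11 genes, 5 were higher, 1 was lower, 2 were not called and 3 were under the count filter. The window of AXL (chr19:41226505-41226804, plus strand) holds 1 match. That of CCN2, a matricellular protein, was chosen after its values were seen for its 3 matches on the other strand, read as GGAATG (chr6:131951323-131951622, minus strand). Capitals mark the motif.
AXL: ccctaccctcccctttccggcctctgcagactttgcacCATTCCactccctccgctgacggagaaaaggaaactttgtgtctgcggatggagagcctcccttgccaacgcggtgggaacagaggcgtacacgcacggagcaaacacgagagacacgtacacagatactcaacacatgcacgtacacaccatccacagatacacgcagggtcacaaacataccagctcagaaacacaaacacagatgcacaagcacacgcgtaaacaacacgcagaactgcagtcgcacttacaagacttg
CCN2: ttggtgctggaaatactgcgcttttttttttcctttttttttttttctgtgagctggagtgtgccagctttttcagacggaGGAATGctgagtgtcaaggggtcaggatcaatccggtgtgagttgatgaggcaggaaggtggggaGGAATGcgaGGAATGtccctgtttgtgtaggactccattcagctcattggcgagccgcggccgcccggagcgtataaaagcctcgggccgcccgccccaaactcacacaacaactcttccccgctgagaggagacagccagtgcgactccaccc
CCN2 went from 63.4, 68.6 and 68.0 CPM to 123, 125 and 127 CPM, a change of 0.91 ± 0.08 under TMM and 0.20 under ERCC scaling, where it was not called.

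p53 targets, a list of arrest, repair and death genes, were higher in nearly all measured cases. Of 35 measured members of 36 listed, 31 rose and 0 fell, with a median of 1.16, and 33 had at least 10 counts in every control. Of all tested genes 21.4% rose and 18.8% fell. The counts of higher and lower members were 31 and 2 without knockdown replicate 1 and 33 and 2 under the GC adjustment. Under ERCC scaling 13 were higher and 2 lower, and the median of 0.46 stayed above that of all genes, -0.72. Of all tested genes 4.75% were then higher and 60.2% lower. BTG2, an antiproliferative cofactor of mRNA deadenylation, had 0.610, 1.08 and 1.09 CPM in control and 12.9, 14.2 and 12.7 CPM in knockdown, a change of 3.83 ± 0.19. GADD45A, a DNA damage sensor, changed by 2.31 ± 0.13. CYFIP2, of the actin-regulating WAVE complex, went from 148, 147 and 151 CPM to 184, 220 and 228 CPM and was not called under ERCC scaling (-0.23). CCNG1, cyclin G1, did not pass at -0.29 ± 0.11 (adjusted p = 0.0600, edgeR), with knockdown replicate 1 at 484 CPM among the controls of 454 to 553 CPM and replicates 2 and 3 below them at 392 and 360 CPM. It was called lower without knockdown replicate 1 (-0.41, adjusted p = 1.01e-04, edgeR) and under the GC adjustment (-0.21, adjusted p = 5.46e-04, edgeR). The p53 half-site was present in the windows of 6 of 29 members, or 20.7%, against 7.56% of tested genes and 6.63% of all windows. All 6 genes were higher under TMM, where 31 of the 35 measured members were. Of these 6, DDB2 and AEN were not called under ERCC scaling. PLK2, a stress-induced kinase, went from 4.81, 5.07 and 7.02 CPM to 33.7, 31.3 and 31.7 CPM with no overlap, a change of 2.52 ± 0.14, and its window (chr5:58460037-58460336, minus strand) is shown with the half-site in capitals.
PLK2: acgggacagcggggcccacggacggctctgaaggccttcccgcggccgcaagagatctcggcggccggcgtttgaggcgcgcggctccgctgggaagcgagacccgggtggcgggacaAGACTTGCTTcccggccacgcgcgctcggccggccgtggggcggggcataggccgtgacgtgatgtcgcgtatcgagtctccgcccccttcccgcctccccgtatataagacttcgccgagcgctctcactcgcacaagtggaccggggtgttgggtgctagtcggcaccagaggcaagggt

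Genes that hold back the cell cycle, of which 3 of 20 are also in the p53 list, rose in part. Of 18 measured members of 20 listed, 12 rose and 3 fell, with a median of 0.81. Under ERCC scaling 5 were higher and 6 lower, where 4.75% of all tested genes were higher and 60.2% lower. WEE1, the kinase that inhibits CDK1, went from 77.7, 76.3 and 83.2 CPM to 270, 251 and 242 CPM, a change of 1.69 ± 0.08 (adjusted p = 1.42e-07, edgeR) that was 0.98 under ERCC scaling. PKMYT1, a related kinase, was not called at 0.03 ± 0.16. In the BCL2 family 4 of 15 measured members rose and 1 fell, where 21.4% of all tested genes rose and 18.8% fell. The counts of rises and falls were 6 and 2 without knockdown replicate 1, and 9 and 2 under the GC adjustment. The death-promoting members BBC3 and BAX rose by 1.50 and 0.65 on the log2 scale, BAX without a call under ERCC scaling, and the survival gene MCL1 stood at 255 ± 4.25 CPM in control and 258 ± 15.6 CPM in knockdown without a call.

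AP-1 and immediate early genes rose in 15 of 23 measured cases out of 31 listed and fell in 3, with a median of 0.67. Under ERCC scaling 8 were higher and 7 lower, where 4.75% of all tested genes were higher and 60.2% lower. JUN, a core AP-1 subunit, had 1.63, 1.42 and 1.16 CPM in control and 9.93, 14.2 and 12.5 CPM in knockdown, a change of 3.11 ± 0.20, and ATF3, a stress-induced partner, changed by 2.68 ± 0.15. FOS, the other classical subunit, was chosen after its values were seen because it moved the other way, from 2.24, 1.89 and 2.25 CPM to 0.562, 1.14 and 0.509 CPM, a change of -1.52 ± 0.30 (adjusted p = 0.00194, edgeR). The groups did not overlap for JUN or FOS. Of 35 measured feedback genes of FGF and ERK signalling 11 fell and 6 rose, where 18.8% of all tested genes fell and 21.4% rose. Their median was -0.05, and under the GC adjustment 14 fell and 9 rose. DUSP6, the phosphatase that limits ERK, fell from 18.6, 15.4 and 14.9 CPM to 5.31, 4.64 and 4.84 CPM, a change of -1.72 ± 0.14. FGF2, the ligand, rose from 107, 101 and 123 CPM to 347, 273 and 270 CPM, a change of 1.42 ± 0.12, and was 0.74 higher under ERCC scaling. Without knockdown replicate 1 it was not called under ERCC scaling, at 0.41 (adjusted p = 0.125, edgeR).

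Cell adhesion and identity lists held members in both directions, where 21.4% of all tested genes rose and 18.8% fell. Of 36 epithelial identity genes 16 rose and 4 fell, with a median of 0.22, and knockdown replicate 1 stood at a median of -0.30 against replicates 2 and 3. Without that library 24 rose and 5 fell. GRHL3, a surface ectoderm factor, rose by 2.57 ± 0.19, CLDN4, a tight junction claudin, by 1.33 ± 0.12, and EPCAM, an adhesion molecule of stem cells, fell by 0.32 ± 0.08. Of 15 measured mesenchymal genes of 24 listed, 10 rose and 3 fell. THY1, a surface glycoprotein of these stem cells and of fibroblasts, fell from 357, 370 and 307 CPM to 99.6, 131 and 130 CPM. Collagens and other matrix genes split into 19 higher and 14 lower of 52, and the list's share of gene counts was 0.649 ± 0.017% in control and 0.884 ± 0.065% in knockdown. COL1A1, of type I collagen, went from 184, 199 and 204 CPM to 837, 1119 and 1201 CPM, a change of 2.43 ± 0.12. Of 17 fibroblast markers 10 were measured, 4 rose and 4 fell, with a median of 0.02, so the list as a whole did not rise. Its summed level was 800 to 896 CPM in control and 1310 to 1810 CPM in knockdown. LUM, FAP and DPT were at 0 in all 6 libraries. This list shares 8 of its 17 members with the matrix list, and the part of fibroblasts in the higher sum was not tested. Of 17 annexin and S100 genes 12 rose and 3 fell, among the latter S100A11, from 138, 140 and 130 CPM to 46.7, 53.1 and 48.1 CPM. Under ERCC scaling 7 epithelial genes were higher and 16 lower, and 3 mesenchymal genes were higher and 5 lower. The counts were 6 and 30 for the matrix list, 2 and 6 for fibroblast markers and 5 and 4 for annexin and S100 genes. Of all tested genes 4.75% were then higher and 60.2% lower.

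The pluripotency lists moved unequally, where 21.4% of all tested genes rose and 18.8% fell. Of 30 core pluripotency genes 6 rose and 12 fell, with a median of -0.20. TERF1, a telomere-binding protein, fell by 0.75 ± 0.08 and PODXL, the carrier of stem cell surface antigens, by 0.21 ± 0.06. DNMT3B, the DNA methyltransferase of these cells, stood at 4806, 4603 and 4190 CPM in control and 4330, 4623 and 4700 CPM in knockdown, with overlap and no call under TMM (0.01 ± 0.07), and was lower under ERCC scaling (-0.72). Markers of the primed state, the one H1 cells occupy, fell in 11 of 18 measured cases and rose in 3, with a median of -0.42. SFRP2, a secreted WNT inhibitor, fell by 1.38. The summed level of the core list was 16796 to 17265 CPM in control and 14995 to 15120 CPM in knockdown, with no overlap. Under ERCC scaling 2 core genes were higher and 24 lower, where 60.2% of all tested genes were lower. Of the primed markers 0 were then higher and 14 lower.

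Few markers of other states and lineages passed the count filter. A gene near 0 in control can pass that filter only through the knockdown libraries, and of the tested genes in the lowest decile of control level 43.5% rose and 0.886% fell. Of 18 naive markers only 8 passed the count filter, 4 had at least 10 counts in every control, 7 rose and 0 fell, and 6 rose under ERCC scaling. KLF5, a transcription factor of the early embryo, went from 1.29, 0.946 and 0.955 CPM to 6.0, 4.32 and 4.9 CPM. Their summed level was 22.6 to 24.3 CPM in control and 50.8 to 64.1 CPM in knockdown. Of 20 genes of the 8-cell stage 3 passed. The histone gene H3Y1 had 0 CPM in every control and a mean of 1.29 CPM in knockdown, and 6 of the 20, among them DUXA and DUXB, were at 0 in all 6 libraries. Of 27 trophoblast and amnion markers 8 passed, 6 rose and 0 fell. Their summed level was 80.7 to 88.1 CPM in control and 118 to 140 CPM in knockdown, and CDX2, CGB8, GCM1, PSG1 and PSG4 were at 0 throughout. Neural ectoderm markers gave 5 rises and 2 falls among 10 measured of 25, with a summed level of 570 to 724 CPM in control and 1266 to 1362 CPM in knockdown, of which NES accounted for 587 and 1216 CPM as group means. Mesoderm had 4 measured markers of 19, with 2 rises and 0 falls, definitive endoderm 3 of 17, with 3 rises, and endothelium and blood 5 of 18, with 2 rises and 0 falls. The mesoderm list and that of endothelium and blood had 1 fall each without knockdown replicate 1. The part of such cells in any result was not tested.

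**Figure D4:**
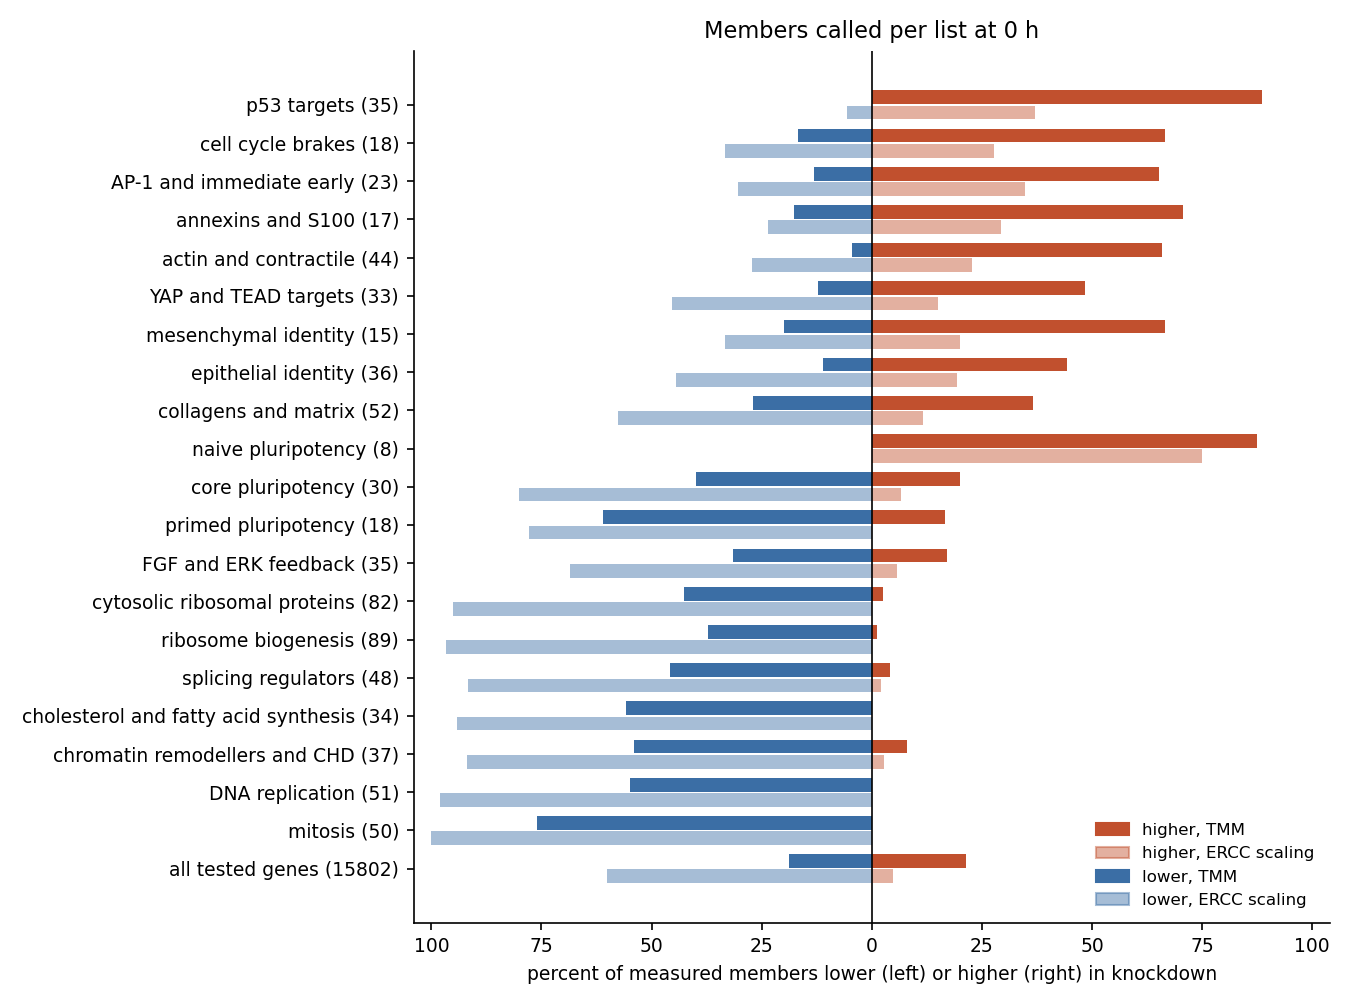
Percent of the measured members of each list that were called lower (left) or higher (right) in knockdown at 0 h, under TMM (dark bars) and under ERCC scaling (pale bars), with the number measured after each name and all 15802 tested genes at the bottom. p53 targets reach 31 of 35 higher under TMM and mitosis genes 38 of 50 lower, while under ERCC scaling lower calls fill most lists.

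The largest falls that held under both scalings were of genes with varied roles. D21S2088E, a long noncoding RNA gene, went from 45.9, 50.2 and 48.7 CPM to 6.37, 6.86 and 5.22 CPM, a change of -2.97 ± 0.12. CHD7, a chromatin remodeller, went from 199, 205 and 218 CPM to 45.8, 43.8 and 47.2 CPM, a change of -2.18 ± 0.08 (adjusted p = 4.92e-08, edgeR). ZDHHC22, of the palmitoyltransferase family, went from 110, 115 and 98.8 CPM to 20.8, 24.5 and 24.8 CPM, and GABARAPL2, of autophagosome formation, from 49.1, 45.6 and 57.8 CPM to 11.4, 11.8 and 9.74 CPM. In all 4 the groups did not overlap, which was a condition for naming the genes of this paragraph. BAZ1A, a subunit of chromatin remodelling complexes, fell by 1.82 ± 0.11, PHF6, a nucleolar chromatin protein, by 1.74 ± 0.11, CREB3L2, a membrane-bound transcription factor of secretion, by 1.87 ± 0.09 and RNF41, a ubiquitin ligase, by 1.85 ± 0.10. MDFI, an inhibitor of muscle transcription factors, fell by 1.96 ± 0.14, HTR7, a serotonin receptor, by 1.90 ± 0.12 and SEPTIN6, a cytoskeletal septin, by 1.78 ± 0.10. PPIA, cyclophilin A, fell from 646, 665 and 627 CPM to 202, 197 and 191 CPM. It has many processed pseudogenes, among which the counting could split reads. MT2A, of the near-identical metallothionein family, differed among the controls, at 60.4, 25.6 and 142 CPM, against 11, 16.8 and 14.3 CPM in knockdown (-2.44 ± 0.47, adjusted p = 0.0019, edgeR).

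Genes of mitosis fell together. Of 50 measured members of 51 listed, 38 fell and 0 rose, with a median of -0.40, where 18.8% of all tested genes fell and 21.4% rose. CDCA8, borealin of the chromosomal passenger complex, went from 70.2, 69.4 and 70.2 CPM to 24.2, 28.7 and 30.5 CPM, a change of -1.33 ± 0.10 (adjusted p = 3.41e-06, edgeR). MKI67, the coat protein of mitotic chromosomes, fell by 0.92 ± 0.08 and BUB3, of the spindle checkpoint, by 0.82 ± 0.09. TOP2A, the topoisomerase of chromosome condensation, went from 618, 551 and 673 CPM to 427, 346 and 335 CPM. Without knockdown replicate 1, in which the list stood at a median of 0.19 above the other 2, 39 fell and 1 rose. Of 51 DNA replication genes 28 fell and 0 rose, with a median of -0.27, and CHAF1A, a subunit of the histone chaperone CAF-1, fell from 220, 232 and 224 CPM to 63.8, 76.9 and 74.4 CPM. RRM2, of ribonucleotide reductase, fell by 0.55 ± 0.08. In the fit without knockdown replicate 1, 34 replication genes fell and 3 rose. Under ERCC scaling 50 mitosis and 50 replication genes were lower and 0 of either list were higher, where 60.2% of all genes were lower.

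Genes of ribosome production and translation fell more often than they rose, and by small amounts. Of all tested genes 18.8% fell and 21.4% rose, and in the highest decile of control level 43.6% fell and 7.15% rose. Whether these lists fell more than equally abundant genes was not tested. Under ERCC scaling 86 of the ribosome biogenesis genes and 78 of the ribosomal protein genes were lower and 0 of either were higher. Of all tested genes 60.2% were then lower. Of 89 measured ribosome biogenesis genes 33 fell and 1 rose, with a median of -0.20, and EBNA1BP2, an early assembly factor of the large subunit, fell by 1.04 ± 0.08. NCL, the nucleolar protein nucleolin, went from 2555, 2540 and 2767 CPM to 2277, 2078 and 1959 CPM, a change of -0.32 ± 0.07, and NPM1, nucleophosmin, by -0.40 ± 0.10. Of 82 measured genes of cytosolic ribosomal proteins 35 fell and 2 rose, with a median of -0.19. Their summed TMM-scaled level was 46356 to 48745 CPM in control and 40230 to 43918 CPM in knockdown, with no overlap. Their share of gene counts, which is not scaled by TMM, was 4.56 ± 0.14% in control and 4.38 ± 0.14% in knockdown, with overlapping groups. With knockdown replicate 1 left out 41 of them fell and 11 rose. RPL22L1, a paralog of a ribosomal protein that also acts in splicing, fell furthest in that list by p, from 105, 102 and 106 CPM to 33.5, 28.8 and 24.4 CPM. These genes have many near-identical pseudogenes. Translation factors fell in 21 of 46 cases and rose in 2. Host genes of small nucleolar RNAs, the guides of ribosomal RNA modification, fell in 11 of 25 cases and rose in 1, with SNHG4 falling by 1.21 ± 0.10. Without knockdown replicate 1, 49 ribosome biogenesis genes fell and 2 rose, 26 translation factors fell and 6 rose, and 12 host genes fell and 3 rose.

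In lists of splicing, of sterol synthesis and of most chromatin functions more members fell than rose. Of 48 splicing regulators 22 fell and 2 rose, among them SRSF7, from 469, 443 and 446 CPM to 278, 245 and 233 CPM, and HNRNPM, by -0.61 ± 0.06. Chromatin remodellers fell in 20 of 37 cases and rose in 3, one of these CHD5, a remodeller of nerve cells, by 2.76. Histone chaperones fell in 16 of 26 cases and rose in 1, or 17 and 2 without knockdown replicate 1. Of 62 histone modifiers 17 fell and 12 rose, with a median of -0.11, where 18.8% of all tested genes fell and 21.4% rose. Of 15 measured genes of DNA methylation 5 fell and 2 rose, with a median of 0.01, or 5 and 5 without knockdown replicate 1. Among them TET1, the enzyme that oxidises methylated cytosine, fell by 1.55. Of 34 genes of cholesterol and fatty acid synthesis 19 fell and 0 rose, with a median of -0.33, or 20 and 2 without knockdown replicate 1, and HMGCS1, an early enzyme of the sterol pathway, went from 794, 830 and 835 CPM to 532, 449 and 393 CPM. FASN, the fatty acid synthase, was called at -0.42 ± 0.15 (adjusted p = 0.0476, edgeR), with control values of 1472, 1672 and 1245 CPM and knockdown values of 815, 1177 and 1296 CPM, so that its groups overlapped. Under ERCC scaling 44 of 48 splicing regulators, 34 of 37 remodellers, 23 of 26 histone chaperones and 32 of 34 sterol and fatty acid genes were lower, where 60.2% of all genes were.

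Stress lists held both directions, where 21.4% of all tested genes rose and 18.8% fell. Of 42 measured genes of the integrated stress and unfolded protein responses 14 rose and 17 fell. MTHFD2, a mitochondrial folate enzyme induced through ATF4, rose by 1.37, and HSPA5, the chaperone of the endoplasmic reticulum, fell from 1579, 1574 and 1495 CPM to 874, 836 and 816 CPM, a change of -0.88 ± 0.06. Heat shock chaperones fell in 18 of 32 measured cases and rose in 6, where HSPB8 rose by 2.95 and HSPA8, the constitutive cytosolic chaperone, fell by 0.74 ± 0.07. Under ERCC scaling 7 stress response genes were higher and 26 lower, and 2 heat shock chaperones were higher and 26 lower. Of all tested genes 60.2% were then lower. NRF2 targets gave 7 rises and 5 falls of 26, and lysosome and autophagy genes 12 rises and 8 falls of 52, both near the 21.4% and 18.8% of all tested genes. These became 9 and 9, and 20 and 10, without knockdown replicate 1. The autophagy receptor gene SQSTM1 rose by 1.61 ± 0.11.

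Genes encoded by mitochondrial DNA took a smaller share of the counts. The 37 genes held 5.50%, 5.50% and 5.29% of gene counts in control and 4.64%, 4.51% and 4.51% in knockdown, with no overlap (exact permutation test of 3 against 3 cannot go below p = 0.1). Of 13 protein-coding members 7 fell and 1 rose, where 18.8% of all tested genes fell and 21.4% rose. In the highest decile of control level 43.6% of tested genes fell and 7.15% rose. MT-CO1, of respiratory complex IV, went from 7298, 7005 and 6626 CPM to 4167, 4298 and 4086 CPM, and MT-ATP8, of the ATP synthase, rose by 0.37 ± 0.06 without a call under ERCC scaling (-0.34). The 10 most abundant genes of each library held 5.99 ± 0.16% of gene counts in control and 5.27 ± 0.09% in knockdown, and the 1000 most abundant 53.3 ± 0.12% and 51.3 ± 0.13%. The number of genes at 1 CPM or more was 14104 to 14186 in control and 14531 to 14717 in knockdown.

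Calls depended on how high a gene stood in control. To keep the sorting library out of the contrast, genes were ranked on their CPM in control replicate 1 and tested in the 5 other libraries. Of the lowest decile, up to 0.813 CPM, 36.3% were higher in knockdown and 0.986% lower. Such genes could pass the count filter through the knockdown libraries alone, which favours rises. From the second decile on, where the filter matters less, 18.9% were higher and 3.21% lower in the second, 19.2% and 9.74% in the fifth, and 4.62% and 31.1% in the highest. The median log2 fold change went from 0.20 in the second decile to -0.21 in the highest. The CPM rank takes no account of gene length. Genes called higher in the comparison of all 6 libraries had a median control level of 5.54 CPM and those called lower 53.7 CPM.

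**Figure D5:**
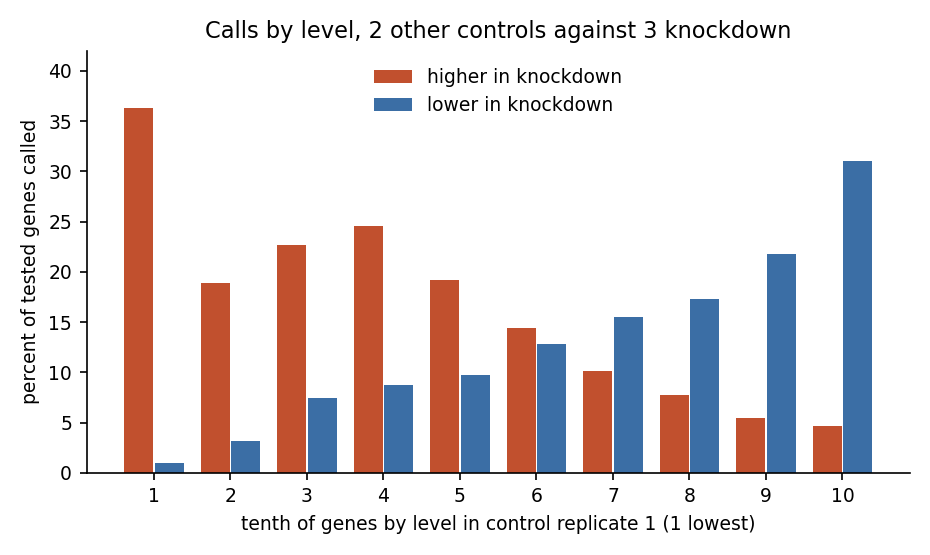
Percent of tested genes called higher or lower in knockdown by decile of genes ranked on CPM in control replicate 1, in the test of the 2 other control libraries against the 3 knockdown libraries under TMM. The share of higher genes falls from 36.3% to 4.62% and the share of lower genes rises from 0.986% to 31.1%.

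Half-lives in the authors' deposited table, 1 value per gene and genotype, differed little between the called classes. The median control half-life was 3.14 h for the 2029 genes with a value that were higher under TMM, 2.95 h for 2669 that were lower and 3.03 h for 7379 that were not called. The knockdown medians in the authors' deposited table were 2.52, 2.55 and 2.55 h in the same order. The 0 h libraries entered those half-lives, so they are no independent readout. Among gene types, 22.5% of 13424 protein-coding genes were higher and 19.9% lower, against 19% and 13.6% of 1275 long noncoding RNA genes and 8.44% and 11% of 818 pseudogenes.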

How the data were processed

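The authors deposited a table of raw counts for genes and ERCC transcripts in each library. A second deposited table by the authors held a signal for each gene and library, a half-life in hours for each gene and genotype, and the log2 ratio of the half-lives. Software named in the submitters' processing notes was featureCounts 2.0.3 for counting, HISAT2 2.2.1, fastp 0.21.1 and SAMtools 1.12, with genome build hg38. No source used here states the gene annotation or whether counting used strand, which makes antisense, overlapping and near-identical genes uncertain. The authors' signal and log2 ratio were not used, and of the deposited half-lives medians alone were taken.

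The counts of the 6 libraries at 0 h were fitted on their own with edgeR 4.0.16 in R 4.3.3 (filterByExpr, TMM, quasi-likelihood F test, Benjamini-Hochberg adjustment, threshold 0.05). Of 61860 genes 15802 passed the filter. The 6 libraries were not pooled with the 12 others because knockdown replicate 1 widened their spread. An SE of a log2 change was taken as its absolute value over the square root of F. For ERCC scaling, library sizes were set to summed ERCC counts. GC content and exonic length came from GENCODE v29, which covered 98.8% of tested genes. Deviations between replicates used a pseudocount of 0.5 CPM. The edgeR fit was also run on simulated counts with known changes. That simulation held no trend with GC content and no shift of all genes, so it cannot test the calls for either.

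The members, the 59 lists and the tests were chosen with earlier results of these data known. The text names NAT10 and THUMPD1, the 15 largest rises and falls as defined beside them, per list the 3 members with the smallest p and the 2 with the highest level, and the 8 genes at each end for knockdown replicate 1, in part. Not every gene that the rule takes is reported here. Alternatives were other scalings, DESeq2 1.42.0, no filter, a fit to all 18 libraries, the replicate number as a block, a minimum change and each library left out. The replicate numbers were not taken to pair the groups.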

Additional observations from a re-analysis of the deposited data

How the results depend on the processing

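Of the 108 genes named with a test, 82 kept their direction and their side of the threshold under every alternative run. The number of calls under TMM was 6349, of which 3374 were higher and 2975 lower. It was 10266 (750 higher, 9516 lower) under ERCC scaling, 8856 (741 and 8115) with TMM over the ERCC transcripts, 6241 (4265 and 1976) with total gene counts, 8728 (3992 and 4736) in the fit to all 18 libraries, 3871 (2411 and 1460) for a minimum change of 1.2-fold, and 11792 (690 and 11102) under ERCC scaling without knockdown replicate 1. Leaving out each library in turn gave 4747 to 8389 calls under TMM (2660 to 4450 higher, 2018 to 3939 lower) and 5712 to 11792 under ERCC scaling (566 to 760 higher, 5145 to 11102 lower). Without knockdown replicate 1 the 8389 calls (4450 and 3939) became 11792 (690 and 11102) under ERCC scaling. DESeq2 gave 3000 higher and 2746 lower, upper-quartile normalization 3786 and 2345, and no filter 3769 and 2967. The GC adjustment, chosen after seeing the data, gave 5041 and 3966, with the replicate block 4929 and 3878, and without knockdown replicate 1 5061 and 3967.

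Deviations of libraries with the same replicate number correlated at -0.14, 0.66 and -0.69, and control replicate 3 correlated best with knockdown replicate 1 (0.73). These deviations followed GC content, with Spearman's rho of -0.76 for control replicate 3 and -0.90 for knockdown replicate 1. The correlations thus cannot tell whether libraries of equal number were handled together. With the replicate number as a block 3074 genes were higher and 2546 lower. The difference in log2 gene counts per ERCC count, -0.82, lay between -0.96 and -0.68 when a library was left out, and was -0.86 as the median over ERCC transcripts and -0.81 without genes encoded by mitochondrial DNA.

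Genes with a small log2 change under TMM turned negative under ERCC scaling, with TMM over the ERCC transcripts, and under ERCC scaling without knockdown replicate 1. In that order the values were -0.54, -0.49 and -0.68 for PARP1, -0.55, -0.49 and -1.05 for NDUFB5, -0.63, -0.59 and -0.53 for MAP1S, -0.39, -0.34 and -0.36 for FLNA, -0.67, -0.62 and -0.71 for ACTB, -0.53, -0.48 and -0.59 for SRF, and -0.16, -0.10 and -0.35 for PTPN14. They were -0.23, -0.18 and -0.30 for CYFIP2, -0.71, -0.67 and -0.69 for PKMYT1, -0.073, -0.023 and -0.13 for BAX, -0.68, -0.63 and -0.91 for MCL1, -0.72, -0.67 and -0.85 for DNMT3B, and -0.34, -0.29 and -0.52 for MT-ATP8. By construction these scalings lower all genes together. Some values near 0 turned under other settings, and the cause was not tested. In the fit to all 18 libraries PKMYT1 was at -0.014, MCL1 at -0.026 and DNMT3B at -0.040. PKMYT1 was at -0.072 under the GC adjustment, at -0.069 with the replicate block added and at -0.064 without knockdown replicate 1. With each library left out the values ran from -0.15 to 0.30 for NDUFB5, -0.039 to 0.37 for MAP1S, -0.080 to 0.21 for PKMYT1, -0.013 to 0.078 for MCL1 and -0.037 to 0.050 for DNMT3B.

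Genes of few counts are limited by counting error, and no counting interval is given for them.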

Other observations

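Other signalling and stress lists held members in both directions relative to the typical transcript, where 21.4% of all tested genes rose and 18.8% fell. In the NOTCH list 8 of 23 measured members rose and 5 fell. RBPJ, the DNA-binding partner of NOTCH, went from 279, 265 and 306 CPM in control to 151, 124 and 124 CPM in knockdown, with no overlap and a change of -1.09 ± 0.10 on the log2 scale (edgeR, adjusted p = 9.16e-06). In the WNT list 6 of 32 rose and 8 fell, with the secreted inhibitor SFRP1 lower by 0.99 on the log2 scale and WIF1 changed by 2.41. In the BMP list 8 of 22 rose and 2 fell, or 10 and 5 without knockdown replicate 1. BMP4, a ligand with few counts, went from 0.949, 0.338 and 0.477 CPM to 3.12, 2.99 and 3.63 CPM, a change of 2.45 ± 0.29. ID3, a target, changed by -0.70. Under ERCC scaling 12, 18 and 9 members of the NOTCH, WNT and BMP lists were lower and 1, 2 and 4 were higher, beside 60.2% of all tested genes lower and 4.75% higher.

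Of 29 measured interferon response genes 12 rose and 4 fell, and HERC5 changed by 1.38. Of all tested genes 21.4% rose and 18.8% fell. Of 18 hypoxia targets 9 rose and 4 fell, EGLN3 by 0.99 and AK4 by -0.88. Of 23 nuclear and imprinted long noncoding RNA genes 12 rose and 3 fell, and SNRPN, an imprinted transcript, went from 119, 119 and 110 CPM to 46.9, 55.3 and 53.2 CPM. Of 47 writers and readers of RNA modifications 13 fell and 3 rose, or 21 and 7 without knockdown replicate 1, among the former VIRMA, of the m6A methyltransferase complex, by -0.80 and YTHDF2, an m6A reader, by -0.70. Of 40 proteasome genes 12 fell and 2 rose, or 20 and 5 without knockdown replicate 1.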
